A study of Rattus norvegicus with 23 samples.

Results

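The genes described here are 9 genes of ferritin and cellular iron handling, chosen by gene symbol from a table of 19249 genes measured in rat lung after repeated wood smoke. All 9 symbols, Fth1, Ftl1, Tfrc, Slc40a1, Slc11a2, Cp, Ireb2, Aco1 and Ncoa4, had a row. The study asked how breathing wood smoke alters gene activity in the lung. Male rats breathed filtered air (7 libraries), eucalyptus smoke at a low concentration (8 libraries, chamber set to 10 ppm carbon monoxide) or eucalyptus smoke at a high concentration (7 libraries, 20 ppm carbon monoxide). Exposure was of the whole body, on 4 days of the first week and, after a break of 3 days, on 3 days of the second week. Strain, age and the time between the last exposure and lung collection were not given in the sources used here. RNA came from pieces of about 35 mg of frozen lung, 1 library per rat.

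Iron is stored in ferritin, a hollow shell built of heavy subunits (Fth1), which oxidise ferrous iron, and light subunits (Ftl1), which help to form the mineral core. Cells take iron up through the transferrin receptor (Tfrc) and the divalent metal transporter (Slc11a2) and release it through ferroportin (Slc40a1), with help from the copper-containing ferroxidase ceruloplasmin (Cp). NCOA4 carries ferritin to the lysosome, where its iron is set free. The iron regulatory proteins, encoded by Aco1 and Ireb2, bind iron-responsive elements in messenger RNAs: in iron-poor cells they hold back the translation of ferritin messages and protect the Tfrc message from decay. Ferritin is therefore regulated largely in translation, which levels of RNA do not show, and ferritin genes are also known targets of NRF2, the transcription factor that acts at antioxidant response elements. In the lung, alveolar macrophages are a main site of iron storage.

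RefSeq's table of promoters (build GRCr8) held entries for 7 of the 9 genes, and none for Fth1 and Ftl1. The 250 bases before each start were searched on both strands for TGACNNNGC, the core of the antioxidant response element, and for ACGTG, a core of the hypoxia response element. Among the 7 genes only the promoters of Ncoa4 and Tfrc held a match, and they are printed for that reason, 5′ to 3′ on the strand of the gene, with the matches in capitals. The Ncoa4 stretch is chr16:7401541-7401790 (plus strand) and the Tfrc stretch is chr11:81690319-81690568 (minus strand).
Ncoa4: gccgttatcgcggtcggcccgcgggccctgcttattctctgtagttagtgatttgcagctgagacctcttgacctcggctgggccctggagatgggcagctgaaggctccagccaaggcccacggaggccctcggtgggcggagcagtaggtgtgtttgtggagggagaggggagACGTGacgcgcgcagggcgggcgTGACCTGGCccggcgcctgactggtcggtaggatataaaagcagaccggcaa
Tfrc: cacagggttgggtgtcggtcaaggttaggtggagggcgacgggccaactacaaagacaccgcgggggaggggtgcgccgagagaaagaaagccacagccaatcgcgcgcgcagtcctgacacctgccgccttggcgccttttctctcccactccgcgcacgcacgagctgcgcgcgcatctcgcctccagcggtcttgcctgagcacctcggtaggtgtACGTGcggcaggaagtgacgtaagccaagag
In Ncoa4, ACGTG lay at -75 to -71 and TGACCTGGC at -52 to -44 from the start, without overlap. In Tfrc, ACGTG lay at -31 to -27. Over the 33469 promoters of this length in the table, 10.1% held TGACNNNGC and 16.6% held ACGTG, so that each match is a description of letters and not of a bound site.

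Values are normalized counts, that is gene counts divided by a size factor for each library, and summed to between 9164897 and 10901943 per library. High smoke replicates 1, 3 and 7 stood apart on the first principal component of all genes (19.7% of the variance), with scores of 36.5 to 51.5. The scores were 0.3 to 8.8 in the other 4 high smoke libraries, -12.7 to -1.8 under low smoke and -21.6 to -0.3 under air. None of the calls of high smoke against air given below for the members, the rows beside them, the wider iron genes and the marker genes held without those 3 libraries. Limma called 124 genes in all against air without them, and 2343 with them. The 6 lung genes used to check the tissue all had a row, and summed to 189901 to 255400 in high smoke and 144470 to 192458 in air. Of these, the surfactant gene Sftpc and the alveolar type I cell gene Ager were each 1.62-fold higher in high smoke than in air (limma adjusted p = 0.00614 and 0.00375), and by 0.45 and 0.62 on the log2 scale without high smoke replicates 1, 3 and 7 (adjusted p = 0.232 and 0.112). The other 4 were not called. The surfactant genes Sftpb and Sftpa1 differed from air by 0.015 and 0.051, Scgb1a1 by -0.19 and Cdh5 by -0.115 on the log2 scale.

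Among markers of blood and immune cells, 7 of 9 red cell genes had a row and summed to 7113 to 14598 in high smoke (median 9387), against 4835 to 7162 in air (median 6022). Hbb was 1.87-fold and Hba-a2 1.62-fold higher in high smoke than in air (limma adjusted p = 0.00168 and 0.00401), while the other 4 red cell genes tested were not called. Of these 4, Hba-a1 differed by -0.21 (95% interval -0.53 to 0.12), Alas2 by 0.30, Slc4a1 by 0.28 and Epb42 by 0.12 on the log2 scale. Without high smoke replicates 1, 3 and 7 the differences of Hbb and Hba-a2 were 0.65 and 0.71 (limma adjusted p = 0.0777 and 0.0785). The 11 macrophage and monocyte genes with a row summed to 65555 to 96221 in high smoke and 60916 to 76841 in air. Most of this was Lyz2, which averaged 67028.5 in high smoke and 63144.2 in air. Of the 11, 36.4% were called, against 16.3% of all genes tested. C1qa, C1qb and C1qc rose 1.56-fold, 1.73-fold and 1.34-fold and Cd68 fell to 0.75 of its air level (limma adjusted p = 0.0188, 0.002, 0.0276 and 0.0439). Without the same 3 libraries these 4 genes differed by 0.46, 0.67, 0.29 and -0.33 (limma adjusted p = 0.335, 0.0903, 0.38 and 0.39). The other 7 were not called in high smoke against air. Csf1r differed by 0.16, Lyz2 by 0.08, Mrc1 by 0.06 and Cd14 by 0.005 on the log2 scale. Adgre1 differed by -0.39, Itgam by -0.28 and Siglec1 by -0.03. Low smoke libraries summed to 4554 to 9165 for red cell genes and 56267 to 77699 for macrophage genes. No gene was called in high smoke against air among 4 neutrophil, 5 dividing cell, 5 airway, 1 liver and 6 cardiac muscle genes tested. In unadjusted limma tests 1 of the airway genes and the liver gene had p below 0.05, and the rank-sum test called none of these genes. The part of red cells, macrophages and lung cell types in the iron genes' levels was not tested, and in pieces of whole lung more cells of a type and more RNA per cell cannot be told apart.

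Fth1 and Ncoa4 rose in high smoke against air, and Ncoa4 also against low smoke. Of the 9 genes, 8 passed the minimum mean of 10 and were tested together with all 14414 genes that passed it, while Slc40a1 lay below it. Against air, 2 of the 8 passed the test in high smoke, Fth1 and Ncoa4, both higher, while 16.3% of all genes tested were called, 9.21% as higher and 7.05% as lower. The members' median log2 difference was 0.06, and that of all genes tested was -0.002. In low smoke against air limma called 0 of the 8, with 1 of the 8 (Fth1) at an unadjusted p below 0.05 and 0 called by the rank-sum test, and 0% of all genes were called. Against low smoke, 1 of the 8 was called in high smoke, Ncoa4, as higher, and 6.78% of all genes were, 3.8% as higher and 2.98% as lower. Both smoke groups were set against the same 7 air libraries, so the contrasts with air share their reference.

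**Figure D1:**
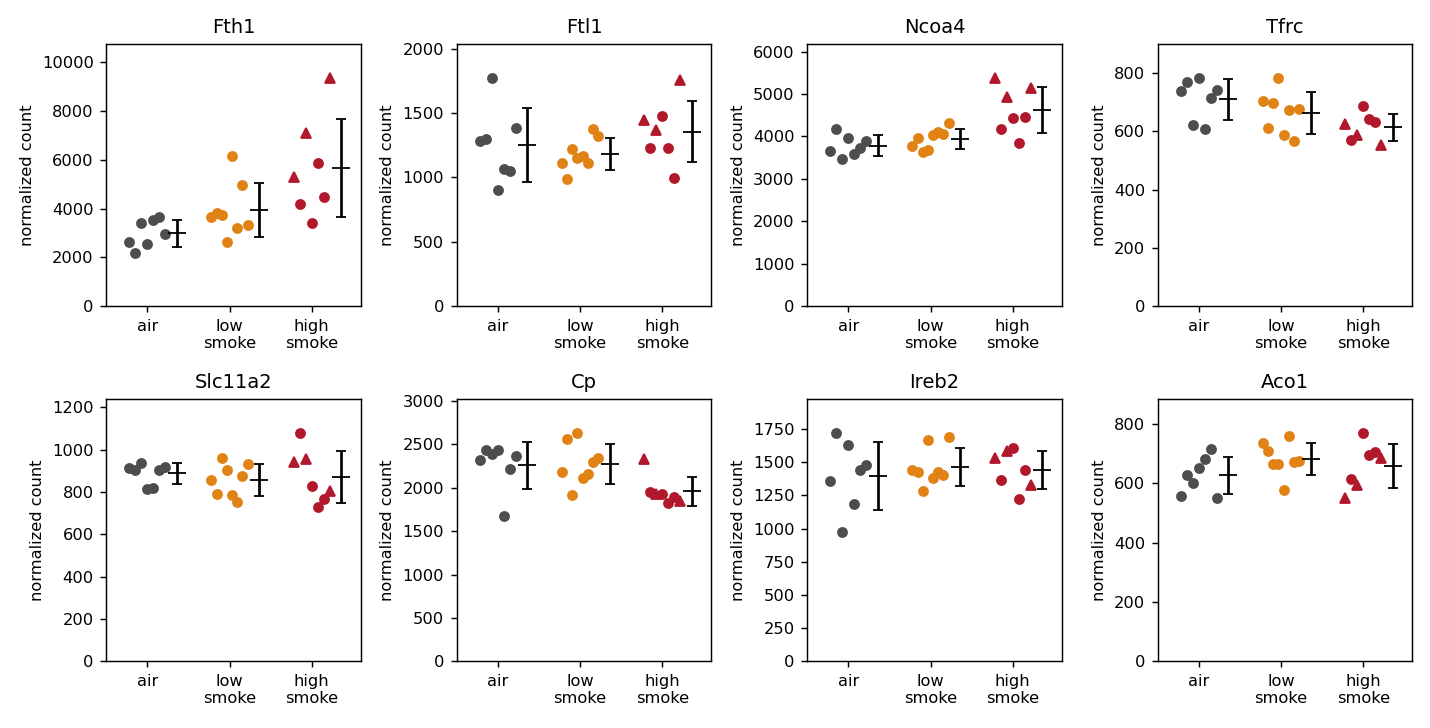
Normalized counts (vertical axes, each from 0) of 8 of the 9 iron genes in each library, with air, low smoke and high smoke from left to right. Each point is 1 library, triangles are high smoke replicates 1, 3 and 7, and bars give the mean ± SD of the group (n = 7, 8 and 7). Fth1 spreads most in high smoke, from 3421 to 9336, and the triangles are the highest points for Ncoa4.

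**Figure D2:**
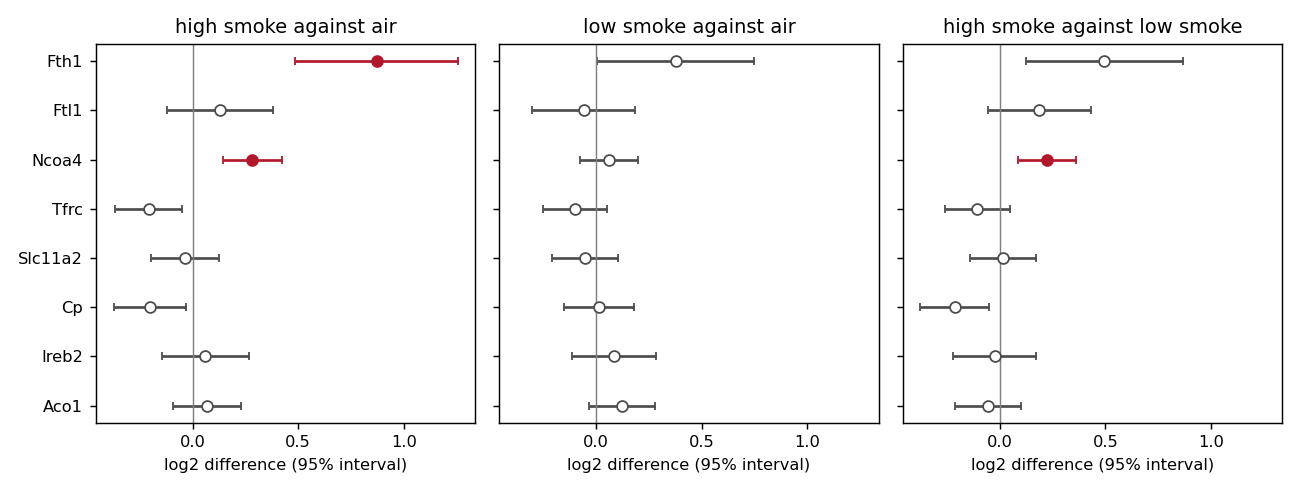
Log2 differences (horizontal axes) with 95% intervals from limma for the 8 iron genes tested, in 3 panels, with high smoke set against air at the left, low smoke against air in the middle and high smoke against low smoke at the right. Filled red points passed an adjusted p of 0.05. In high smoke against air Fth1 lies at 0.87 and Ncoa4 at 0.28, and in high smoke against low smoke Ncoa4 at 0.22.

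Fth1, the ferritin heavy chain with ferroxidase activity, had the largest difference from air of the 8 genes tested, in low and in high smoke. Its lowest, median and highest normalized counts were 2186, 2944 and 3652 under air, 2635, 3710 and 6138 under low smoke and 3421, 5295 and 9336 under high smoke. Of the 7 high smoke libraries 6 lay above every air library, and replicate 4, at 3421, lay within the air range. Replicates 7 and 3 were the highest at 9336 and 7076. Fth1 averaged 5658 ± 2015 in high smoke and 2984 ± 557 in air (SD, n = 7 each), a log2 difference of 0.87 (SE 0.19, 95% interval 0.49 to 1.26, 1.83-fold, limma adjusted p = 0.00334).

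Low smoke lay between these, at 3936 ± 1109 (SD, n = 8), with 5 of its 8 libraries above every air library and replicate 4 at 2635 well inside the air range. The log2 difference of low smoke against air was 0.38 (95% interval 0.00 to 0.75, limma adjusted p = 0.771), and that of high smoke against low smoke 0.50 (0.12 to 0.87, adjusted p = 0.0894). Neither passed the test. The spread between rats also differed, with a coefficient of variation of 18.7% under air, 28.2% under low smoke and 35.6% under high smoke, a difference that was not tested. Without high smoke replicates 1, 3 and 7 the difference of high smoke against air was 0.58 and no longer passed (limma adjusted p = 0.136). The red cell genes Hbb and Hba-a2 were also higher in high smoke and 4 others tested, among them Hba-a1 at -0.21, were not called, as given above.

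The Fth1 row lies on chromosome 1 at 226030938 to 226033229 of rn6, on the plus strand, and is overlapped by Best1, a chloride channel gene on the opposite strand. The strand setting of the counting was not given in the sources used here. Best1 had 160 ± 26.4 normalized counts in high smoke and 205 ± 42.4 in air (SD, n = 7 each), a log2 difference of -0.34 that did not pass the test (limma adjusted p = 0.0687). RefSeq lists 10 further symbols of ferritin heavy chain copies and none had a row by symbol. Rows of such copies under other names were not sought. Whether reads from such copies were counted as Fth1 cannot be told.

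For the light chain, the row named Ftl1 and the gene of that name in RefSeq did not lie in the same place. The row Ftl1 spans 909 bases of chromosome 5 (152325871 to 152326779 of rn6, plus strand), between Cd52 and Ubxn11. It shared 0 of its 10 nearest neighbours with RefSeq's Ftl1 on chromosome 1 and 8 of 10 with RefSeq's LOC100360087, for which RefSeq lists Ftl1 as a synonym. The row named LOC100360087 spans 1485 bases of chromosome 1 (101448346 to 101449830, minus strand), between Gys1 and Bax, where RefSeq places Ftl1. A further row, LOC100359668, carries the gene number of RefSeq's Ftl1l2 and lies on chromosome 6 (76652206 to 76652758, minus strand). These 2 rows were picked with their values known, and all 3 may share reads, since the copies are alike and the treatment of reads with several matches was not given in the sources used here.

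The row Ftl1 had a lowest, median and highest count of 900, 1286 and 1770 under air, 986, 1161 and 1373 under low smoke and 996, 1366 and 1753 under high smoke. The groups overlapped, and no high smoke library lay above the highest air library. Its means were 1356 ± 239 in high smoke and 1250 ± 285 in air (SD, n = 7 each), and the log2 difference of 0.13 did not pass the test (95% interval -0.12 to 0.38, limma adjusted p = 0.506). Low smoke, at 1180 ± 123 (SD, n = 8), differed from air by -0.06 (-0.30 to 0.18, adjusted p = 0.96) and high smoke from low smoke by 0.19 (-0.06 to 0.43, adjusted p = 0.331).

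The row between Gys1 and Bax gave another picture. LOC100360087 had a lowest, median and highest count of 629, 796 and 1087 under air, 550, 752 and 840 under low smoke and 778, 1065 and 1336 under high smoke. It rose in high smoke against air by 0.40 on the log2 scale (SE 0.12, 1.32-fold, limma adjusted p = 0.024) and against low smoke by 0.49 (SE 0.12, 1.4-fold, adjusted p = 0.0228). Low smoke differed from air by -0.08 (95% interval -0.32 to 0.16, adjusted p = 0.939). The call against air was lost without high smoke replicate 1 or 7 or air replicate 4 (adjusted p up to 0.0656), after scaling to equal totals (0.33, adjusted p = 0.0682), by the rank-sum test (adjusted p = 0.14) and without high smoke replicates 1, 3 and 7 together (0.34, adjusted p = 0.242). The call against low smoke was lost by the rank-sum test (adjusted p = 0.0644). By limma it was lost without high smoke replicate 1 or 7 (adjusted p up to 0.0711) and without replicates 1, 3 and 7 together (0.43, adjusted p = 0.636).

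LOC100359668 had a lowest, median and highest count of 105, 199 and 497 under air, 193, 418 and 605 under low smoke and 288, 486 and 758 under high smoke. It rose in high smoke against air by 1.25 (SE 0.29, 2.37-fold, limma adjusted p = 0.0062), and the call held in each of 22 fits that left out 1 library. It was lost by the rank-sum test (adjusted p = 0.0721) and without high smoke replicates 1, 3 and 7, with a difference of 1.29 (adjusted p = 0.0776). The difference of low smoke against air was 0.84 (95% interval 0.26 to 1.43, adjusted p = 0.697) and that of high smoke against low smoke 0.40 (-0.18 to 0.99, adjusted p = 0.39). Summed over these 3 rows, light chain counts were 2910 ± 474 in high smoke and 2270 ± 431 in air (SD, n = 7 each), a difference that was not tested. RefSeq lists 21 further symbols of light chain copies, Ftl1l2 among them, and none had a row by symbol. The 3 rows may therefore not hold all light chain reads.

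**Figure D3:**
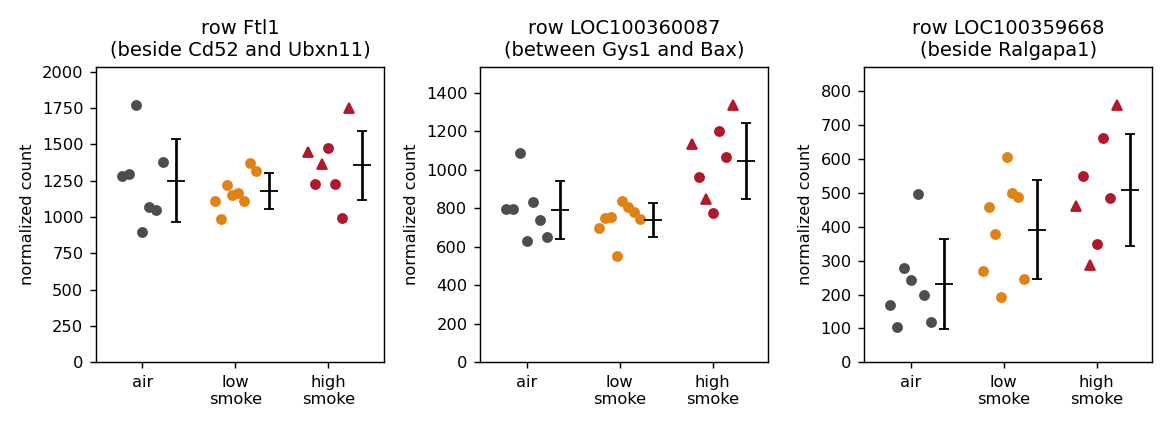
Normalized counts (vertical axes, each from 0) of the rows Ftl1, LOC100360087 and LOC100359668 in each library, by group, with triangles for high smoke replicates 1, 3 and 7 and bars for the mean ± SD. The groups overlap for the row Ftl1, whereas the mean of LOC100360087 is 1047 in high smoke against 790 in air, and that of LOC100359668 is 508 in high smoke against 231 in air.

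Ncoa4, the cargo receptor that takes ferritin to the lysosome and whose promoter is printed above, rose in high smoke against both other groups. Its lowest, median and highest counts were 3480, 3716 and 4170 under air, 3631, 3997 and 4306 under low smoke and 3851, 4464 and 5372 under high smoke. High smoke replicates 1, 7 and 3 were the highest libraries of all, at 5372, 5138 and 4929, and 6 of 7 high smoke libraries lay above every air library. Ncoa4 averaged 4623 ± 544 in high smoke and 3783 ± 242 in air (SD, n = 7 each), a log2 difference of 0.28 (SE 0.07, 95% interval 0.14 to 0.42, 1.22-fold, limma adjusted p = 0.00752). Against low smoke, at 3944 ± 229 (SD, n = 8), the difference was 0.22 (SE 0.07, 0.09 to 0.36, 1.17-fold, adjusted p = 0.0447). Low smoke differed from air by 0.06 (-0.08 to 0.20, adjusted p = 0.915).

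The rise of Ncoa4 against air held in each fit that left out 1 library (adjusted p up to 0.0224 by limma). It missed the threshold by the rank-sum test (adjusted p = 0.0566) and without high smoke replicates 1, 3 and 7, where the difference was 0.16 (limma adjusted p = 0.27). The call against low smoke was lost when any 1 of high smoke replicates 1, 3 and 7, low smoke replicates 1 to 7 or air replicates 1 and 6 was left out (limma adjusted p up to 0.125).

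Of the uptake genes neither passed the test. Tfrc, the receptor that brings transferrin-bound iron into the cell, had a lowest, median and highest count of 606, 739 and 781 under air, 565, 675 and 782 under low smoke and 553, 626 and 685 under high smoke. All 7 high smoke libraries lay below the air median and 3 lay below every air library, but the groups overlapped. The means were 613 ± 45.9 in high smoke and 710 ± 69.8 in air (SD, n = 7 each), a log2 difference of -0.21 (95% interval -0.37 to -0.05, limma adjusted p = 0.0647). This value passed the test under some alternatives: it was -0.28 with libraries scaled to equal totals (adjusted p = 0.0155), -0.23 with equal upper quartiles (adjusted p = 0.0403) and -0.25 with array weights (adjusted p = 0.0321). It did not pass by the rank-sum test (adjusted p = 0.17) or without high smoke replicates 1, 3 and 7 (-0.17, limma adjusted p = 0.431). Leaving out high smoke replicate 4, air replicate 3 or air replicate 5 also brought it under the threshold (limma adjusted p = 0.0379, 0.0325 and 0.0331).

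Tfrc in low smoke, at 662 ± 70.7 (SD, n = 8), differed from air by -0.10 (95% interval -0.25 to 0.05, limma adjusted p = 0.861), and high smoke differed from low smoke by -0.11 (-0.26 to 0.05, adjusted p = 0.382). Slc11a2, which carries ferrous iron across the endosomal and cell membrane, averaged 872 ± 124 in high smoke and 887 ± 48.7 in air (SD, n = 7 each). Its differences were -0.04 in high smoke against air (-0.20 to 0.13, adjusted p = 0.796) and -0.05 in low smoke against air (-0.21 to 0.10, adjusted p = 0.944). High smoke libraries lay on both sides of the air range, 3 above and 3 below it.

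For the export genes the data were limited. Slc40a1, the only known exporter of iron from mammalian cells, had a lowest, median and highest count of 0.221, 1.35 and 6.65 under air, 5.56e-05, 1.35 and 11.2 under low smoke and 0.00172, 5.25 and 22.7 under high smoke. With no minimum its log2(value + 1) difference was 1.14 in high smoke against air (limma adjusted p = 0.292) and 0.02 in low smoke against air (adjusted p = 0.999). The row Slc40a1 covers 9776 bases of chromosome 9 (52820683 to 52830458 of rn6, minus strand), and the next row on that strand, NEWGENE_620180, covers 52894365 to 52912294. Both lie between Wdr75 and Asnsd1, where RefSeq has a single Slc40a1 spanning 108007 bases, and the files give NEWGENE_620180 no other name. Chosen after its values were seen, NEWGENE_620180 had 234 ± 23.3 counts in high smoke and 249 ± 23.1 in air (SD, n = 7 each), with a difference of -0.09 (95% interval -0.29 to 0.11, limma adjusted p = 0.546). Low smoke, at 210 ± 33.5 (SD, n = 8), differed from air by -0.26 (-0.45 to -0.06, adjusted p = 0.702).

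Cp, the ferroxidase ceruloplasmin, had a lowest, median and highest count of 1671, 2370 and 2436 under air, 1918, 2240 and 2627 under low smoke and 1822, 1931 and 2332 under high smoke. Every high smoke library lay below the air median, but air replicate 5, at 1671, lay below all of them. The means were 1959 ± 171 in high smoke and 2261 ± 271 in air (SD, n = 7 each), a log2 difference of -0.20 (95% interval -0.37 to -0.03, limma adjusted p = 0.0972). It was -0.27 and passed the test without air replicate 5 (adjusted p = 0.0122), and it was -0.28 with libraries scaled to equal totals (adjusted p = 0.0192) and -0.24 with array weights (adjusted p = 0.0435). It did not pass by the rank-sum test (adjusted p = 0.202) or without high smoke replicates 1, 3 and 7 (-0.24, limma adjusted p = 0.245).

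High smoke differed from low smoke, at 2276 ± 234 (SD, n = 8), by -0.21 for Cp (95% interval -0.38 to -0.05, limma adjusted p = 0.0953), while low smoke differed from air by 0.01 (-0.15 to 0.18, adjusted p = 0.988). Hps3, a gene of lysosome-related organelles on the opposite strand, overlaps Cp on chromosome 2 (104744461 to 104799854 of rn6, plus strand for Cp). Hps3 fell to 312 ± 29.8 in high smoke, against 404 ± 60.5 in air (SD, n = 7 each), a difference of -0.36 (limma adjusted p = 0.0176) that was -0.29 without high smoke replicates 1, 3 and 7 (adjusted p = 0.281). Without a stated strand setting, reads of these genes in the stretch they share cannot be told apart.

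The regulators did not pass the test in any contrast. Ireb2, which encodes iron regulatory protein 2, averaged 1440 ± 143 in high smoke and 1397 ± 255 in air (SD, n = 7 each), a log2 difference of 0.06 (95% interval -0.14 to 0.27, limma adjusted p = 0.722). Low smoke, at 1465 ± 141 (SD, n = 8), differed from air by 0.09 (-0.11 to 0.28, adjusted p = 0.92), and high smoke from low smoke by -0.03 (-0.22 to 0.17, adjusted p = 0.901). Air libraries spread most, at 971 to 1717, and held all 7 high smoke libraries, at 1225 to 1605.

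Aco1, whose product is iron regulatory protein 1 when it lacks its iron-sulfur cluster and a cytosolic aconitase when it holds one, averaged 658 ± 75.3 in high smoke and 626 ± 61.5 in air (SD, n = 7 each). The log2 difference was 0.07 (95% interval -0.09 to 0.23, limma adjusted p = 0.595). Low smoke, at 681 ± 54.7 (SD, n = 8), differed from air by 0.12 (-0.03 to 0.28, adjusted p = 0.82). The small differences of Ireb2 and Aco1 in high smoke against air changed sign, to -0.02 and -0.01, with libraries scaled to equal totals.

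Ratios within a library do not depend on how libraries are scaled to each other, and were compared by exact two-sided permutation tests with adjustment over 6 tests. Both ratios hold Fth1, so these tests are not separate from that of Fth1 given above. Neither Tfrc nor the row Ftl1 passed the limma test by itself in high smoke against air. The log2 ratio of Fth1 to the row Ftl1, which is not corrected for length and so gives no proportion of subunits, was 2.01 ± 0.43 in high smoke and 1.26 ± 0.41 in air (SD, n = 7 each), a difference of 0.74 (SE 0.22, exact p = 0.00816, adjusted p = 0.0245). In low smoke it was 1.70 ± 0.38 (SD, n = 8), a difference from air of 0.44 that did not pass (SE 0.20, exact permutation adjusted p = 0.0781). Alternatives added after the data were seen used other light chain rows. With the sum of the rows Ftl1 and LOC100360087, the ratio differed from air by 0.62 in high smoke (exact permutation adjusted p = 0.028) and by 0.44 in low smoke (adjusted p = 0.0516). With LOC100360087, the row at RefSeq's Ftl1 position, alone, it differed from air by 0.47 in high smoke (exact permutation adjusted p = 0.0594) and by 0.46 in low smoke (adjusted p = 0.0284).

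The log2 ratio of Tfrc to Fth1, an uptake receptor against a storage subunit, was -3.13 ± 0.57 in high smoke and -2.05 ± 0.40 in air (SD, n = 7 each), a difference of -1.08 (SE 0.26, exact permutation p = 0.00233, adjusted p = 0.014). It ranged from -4.07 to -2.32 in high smoke and from -2.53 to -1.51 in air, so that the groups overlapped. Low smoke, at -2.53 ± 0.52 (SD, n = 8), differed from air by -0.48 (SE 0.24, exact permutation adjusted p = 0.0863), and high smoke from low smoke by -0.60 (SE 0.28, adjusted p = 0.0781). Without high smoke replicates 1, 3 and 7 neither ratio passed in high smoke against air: Fth1 to Ftl1 differed by 0.58 and Tfrc to Fth1 by -0.75 (exact permutation adjusted p = 0.108 each). The smallest p these tests can give is 0.000583 for 7 against 7 libraries and 0.000155 for 8 against 7.

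Rats of the same group also differed from each other in these genes. After subtracting each group's mean log2 value, Fth1 and Tfrc ran in opposite directions over the 22 libraries, with Pearson's r = -0.73 (permutation p = 0.00013, adjusted over 28 pairs of genes 0.00364) and Spearman's rho = -0.70 (permutation p = 0.00044, adjusted 0.0123). Without the 2 libraries farthest from the median of Fth1, r was -0.68. It was -0.76 under air, -0.86 under low smoke and -0.66 under high smoke taken alone, -0.73 without high smoke replicates 1, 3 and 7 (n = 19) and -0.69 with libraries scaled to equal totals.

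**Figure D4:**
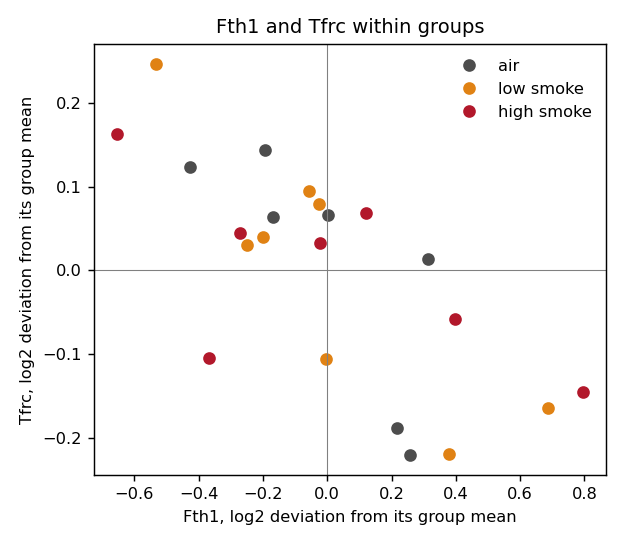
Deviation of Tfrc (vertical axis, log2) against deviation of Fth1 (horizontal axis, log2) from the mean of each library's own group, 1 point per library, coloured by group. Libraries with more Fth1 than their group's mean mostly have less Tfrc, with r = -0.73 over 22 libraries.

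Of the other pairs, Tfrc and Ireb2 ran together, with r = 0.62 (permutation p = 0.00177, adjusted 0.0248) and rho = 0.61 (p = 0.00299, adjusted 0.0314), and r = 0.61 without the 2 farthest libraries. Within groups r was 0.90 under air, 0.46 under low smoke and 0.32 under high smoke. In no other pair did r pass the adjusted threshold, while rho did for Slc11a2 with Aco1 (-0.59, permutation adjusted p = 0.0314, r = -0.50) and Cp with Ireb2 (0.59, adjusted p = 0.0314, r = 0.46). Fth1 and Ftl1 had r = 0.27 (permutation adjusted p = 0.412). These values share the scaling of each library. Their permutation p-values do not allow for the group means taken out and tend to be too small.

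Among 10397 named genes with a mean of at least 50, those whose deviations over the 22 libraries were most like each gene's are given as a description. For Fth1 these were Eif3m (r = 0.86), Hpcal1 (0.84) and Gm5471 (0.84), and for the row Ftl1 they were Taf5l (0.87), Zfp637 (0.81) and Trappc2 (0.80). For Tfrc they were Tasor2 (0.85), Rps6ka3 (0.85) and Ocrl (0.82), and for Cp they were P2ry10 (0.89), Tlr2 (0.86) and Sla (0.85). No other gene of the iron lists was among these.

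The wider iron pathway was read from 7 lists of 79 genes (Alas2 stands in 2 of them), of which 78 had a row and 72 were tested. Against air, 11 rose and 4 fell in high smoke, or 20.8% against 16.3% of all genes tested, with a median log2 difference of 0.03. The rank-sum test called 3 of the 72, and 746 of all 14414 genes tested. Without high smoke replicates 1, 3 and 7 limma called 0 of 72, where it called 124 genes in all. Of the 72, 9 had an unadjusted p below 0.05, and 60 kept the sign of their difference. That fit used the same air libraries and the remaining high smoke libraries, so agreement in sign is partly built in. In low smoke against air limma called 0 of 72, with 1 at an unadjusted p below 0.05 and 0 by the rank-sum test. Both tests called 0 genes in all there. Between the smoke groups, 3 were higher and 3 lower in high smoke than in low smoke, or 8.33% against 6.78% of all genes. Without high smoke replicates 1, 3 and 7 limma called 0 of 72 between the smoke groups, with 3 at an unadjusted p below 0.05. That fit called 0 genes in all, so its count says nothing particular of the iron genes.

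Mitochondrial iron and iron-sulfur cluster genes gave 4 rises and no fall among 17 tested, with a list median of 0.02, where 9.21% of all genes tested were called as higher and 7.05% as lower. The difference farthest from 0 in the list was that of Bola3, a cluster assembly factor, at -0.63, which did not pass (95% interval -1.11 to -0.15, limma adjusted p = 0.0672). Glrx5, a glutaredoxin that passes clusters on, averaged 285 ± 66.6 in high smoke and 194 ± 20.8 in air (SD, n = 7 each) and rose 1.44-fold (limma adjusted p = 0.0135). Lyrm4, a partner of the cysteine desulfurase, rose 1.33-fold (adjusted p = 0.0138), the assembly factor Isca2 1.3-fold (adjusted p = 0.0241) and the carrier Nfu1 1.25-fold (adjusted p = 0.0196). In the list for sensing and delivery within the cell, 3 of 10 rose: Pcbp2, an iron chaperone that loads ferritin, 1.19-fold (limma adjusted p = 0.00985), and the cytosolic cluster scaffolds Nubp1 and Nubp2, 1.4-fold and 1.36-fold (adjusted p = 0.0327 and 0.042). Cul1, a ubiquitin ligase scaffold, fell to 0.857 of its air level (limma adjusted p = 0.0215).

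Among 11 genes of heme transport and breakdown, 2 rose and none fell in high smoke against air, or 18.2% called against 16.3% of all genes tested. Hp, haptoglobin, which binds free hemoglobin, averaged 554 ± 246 in high smoke and 285 ± 92.3 in air (SD, n = 7 each) and rose 1.86-fold (limma adjusted p = 0.0121). Its relation to the red cell genes given above, of which 2 of 6 tested were called, was not tested. Blvra, biliverdin reductase A, rose 1.34-fold against air (limma adjusted p = 0.00402) and 1.41-fold against low smoke (adjusted p = 0.014). Hmox1, the inducible heme oxygenase that frees iron from heme, averaged 286 ± 40.7 in high smoke and 421 ± 436 in air (SD, n = 7 each), and its difference of -0.17 did not pass (95% interval -0.79 to 0.46, adjusted p = 0.749). Of 9 heme synthesis genes limma called 0, with 2 at an unadjusted p below 0.05 and 0 by the rank-sum test.

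Of 10 genes of export and the hepcidin axis, 2 fell and none rose in high smoke against air, or 20.0% called against 16.3% of all genes tested. Bmpr1a, a bone morphogenetic protein receptor, fell to 0.737 of its air level (limma adjusted p = 0.00846), and Smad4, the common mediator downstream of it, to 0.829 (adjusted p = 0.00644). Both were also lower in high smoke than in low smoke (0.779 and 0.867 of the low smoke level, limma adjusted p = 0.042 and 0.0454). Those calls against low smoke were lost in 10 and 13 of 22 fits that left out 1 library, and without high smoke replicates 1, 3 and 7 the differences were -0.18 and -0.12 (limma adjusted p = 0.793 and 0.765). Of 11 uptake and reduction genes only Steap2, a ferrireductase, rose (1.35-fold, limma adjusted p = 0.0438). Of 5 other genes whose messages carry an iron-responsive element, the kinase Cdc42bpa fell to 0.786 of its air level (limma adjusted p = 0.0458). Steap2, Nubp1, Nubp2 and Cdc42bpa each lost their call against air when some single libraries were left out (in 10, 7, 9 and 15 of 22 fits), and so did Isca2, Cul1 and Nfu1 (in 4, 2 and 1). Bmpr1a, Smad4, Pcbp2, Lyrm4, Glrx5, Blvra and Hp kept their call against air in all 22. Of these fits, 8 left out a low smoke library, which does not alter the difference between high smoke and air. The rank-sum test called 0 genes against air in the export list and 0 in the heme transport list, so Bmpr1a, Smad4, Blvra and Hp did not pass it. It called 1 gene of the sensing list and 2 of the mitochondrial list.

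**Figure D5:**
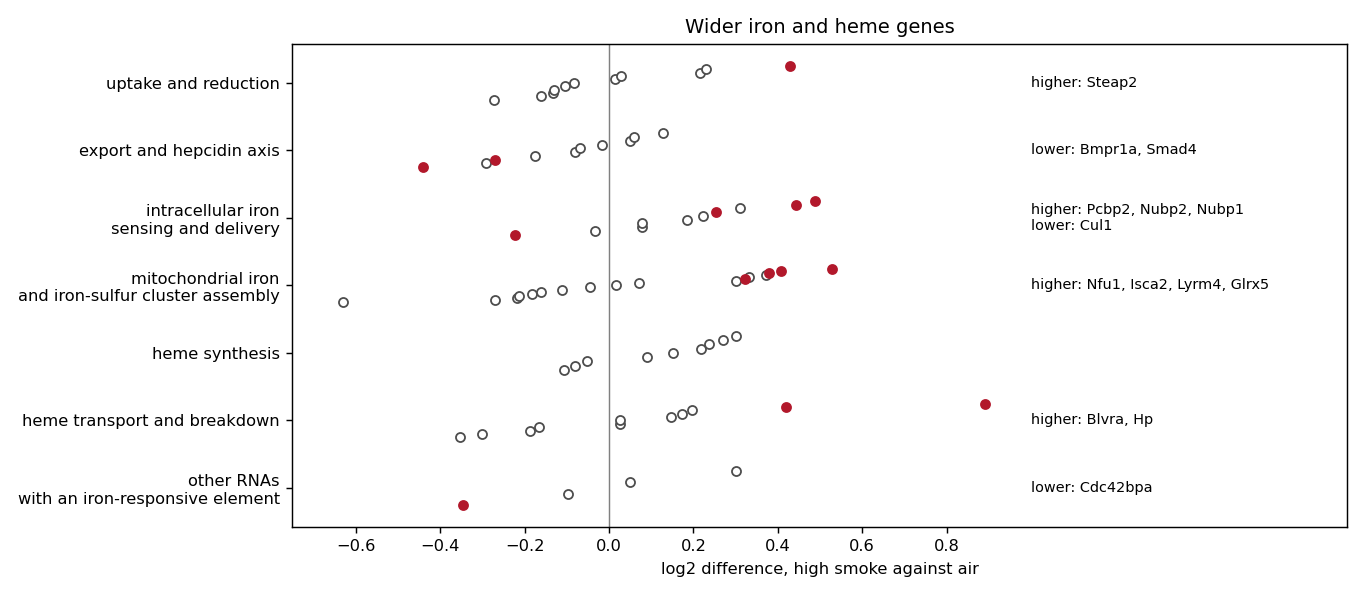
Log2 difference of high smoke against air (horizontal axis) for 71 of the 72 wider iron and heme genes tested, 1 point per gene, in 7 lists down the page. Filled red points passed an adjusted p of 0.05 by limma and are named at the right in order of their difference, and no point of the heme synthesis list is filled.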

How the data were processed

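Lung RNA was sequenced from 22 rats, and 1 table of 19249 genes was analysed. Per the submitters' processing notes, STAR 2.7.3a, Partek, DESeq2 and build rn6 were used. The deposited unit is signal: the authors divided gene counts by a size factor per library. The counting method and strand setting were not given in the sources used here. Of the values under 200 reads, 80.7% to 82.8% per library lay within 0.02 of a whole read, so whole reads were not recovered and no count model was run here. Libraries held 8484131 to 12055512 read equivalents, which limits low genes most. The labels list 23 samples, and high smoke replicate 8, marked there as removed for quality, was not analysed here. The labels' protocol names a filtered-air sample as the one removed. Of 24 rats randomized, 8 were planned per group, and the labels hold 7 air samples. An air rat is thus absent from the labels and a high smoke rat from the counts, so both statements can hold.

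Values were taken as log2(value + 1), which understates changes of low genes, and genes with a mean of at least 10 (14414) were tested. The 3 groups entered 1 model in limma 3.58.1 (trend on, robust off; R 4.3.3), two-sided, with Benjamini-Hochberg adjustment over all genes tested, called at an adjusted p below 0.05. Intervals are 95% intervals of the difference. Nothing says more of the replicates than that they are separate rats. Ratios were tested by exact two-sided permutation in scipy 1.17.1, with adjustment over 6 tests. Correlations used deviations from group means and permutation p-values adjusted over 28 pairs. The permutations ran over all 22 libraries without regard to group. Positions are 1-based in rn6, and promoters come from RefSeq's GRCr8 table. The fit was tested on simulated data.

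The naming rule took all 9 members, the called genes of 7 wider iron lists (at most 4 per list), and the 3 genes most alike Fth1, Ftl1, Tfrc and Cp. A gene of the wider lists that the rule selects is counted but not reported here. Marker genes come from lists of cell types, and those called were named. Genes outside these are Hmox1, Bola3, Hps3, Best1, LOC100360087, LOC100359668 and NEWGENE_620180, which were chosen after their values were seen. The members and lists were chosen with earlier results of these data known. Alternatives were other pseudocounts, filters and scalings, array weights, robust shrinkage, 2 groups only, an exact rank-sum test, leaving out each library, and leaving out high smoke replicates 1, 3 and 7. Another row for the ferritin light chain was added after the data were seen.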

Additional observations from a re-analysis of the deposited data

Results flagged for a closer look

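For each of the 9 iron genes and the log2 ratios of Fth1 to Ftl1 and of Tfrc to Fth1, each group of 7 or 8 libraries was checked for a highest or lowest library far from the others (Dixon's test at 95%). Of 33 groups of values, 4 held such a library, and chance alone gives about 1 in 20. For Cp, high smoke replicate 1 had 2331.7 normalized counts, with the next high smoke library at 1946.3. Also for Cp, air replicate 5 had 1670.7, with the next air library at 2213.4, and the difference of high smoke against air without it is given above. For Slc40a1, whose values were too low to be tested, low smoke replicate 8 had 11.2, with the next low smoke library at 3.4, and air replicate 1 had 6.7, with the next air library at 2.2.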

How the results depend on the processing

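No paired analysis was possible because the labels number the rats without tying any number to a shared litter, day or batch. Across 34 alternatives (22 of which left out 1 library) the 8 genes tested gave 816 values in 3 contrasts, of which 759 kept their direction and their side of the threshold, 20 lost the call, 13 gained one and 24 changed sign. The cause of these changes was not tested. Most of the 816 values belong to differences that were not called and had no call to lose. The calls of Fth1 and Ncoa4 against air and of Ncoa4 against low smoke were lost in 1, 2 and 17 of 34 alternatives. The 759 values are therefore no measure of how firm the calls are. Leaving out a library of the third group does not alter the difference between the groups compared.

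Against air, the number of members called in high smoke was 2, and it was 4 after scaling to equal totals and 4 with array weights (Tfrc and Cp added, both lower), 1 by the rank-sum test and 0 without high smoke replicates 1, 3 and 7, where 4 libraries remain in the group. It ranged from 2 to 4 when single libraries were left out, with 4 without air replicate 5. Genes called were 2343 in all, 1351 with 2 groups only, 746 by rank-sum, 124 without those 3 libraries, and 1453 to 2863 when 1 library was left out, with the lowest counts without high smoke replicate 1 (1453), 3 (1461) or 7 (1550). Scaling to equal totals moved the median of all genes by -0.08 and the split to 894 higher and 1797 lower, against 1327 and 1016 as deposited.

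In low smoke against air 0 members were called under every alternative run. Genes called were 0, with 923 at an unadjusted p below 0.05 by limma and 0 by the rank-sum test, 1 without high smoke replicates 1, 3 and 7, and 0 to 2 when 1 library was left out (2 without air replicate 5).

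Against low smoke, the member called in high smoke, Ncoa4, was lost (0 called) with no filter, array weights, 2 groups only, the rank-sum test and without those 3 libraries, and 2 were called after scaling to equal totals (Cp at -0.25, limma adjusted p = 0.0468). The number was 0 to 2 when 1 library was left out, with Fth1 called at 0.60 without high smoke replicate 4 (limma adjusted p = 0.0299). Genes called were 977 in all, 183 by rank-sum, 0 without the 3 libraries, and 29 to 1651 when 1 library was left out, with 35, 51 and 29 without high smoke replicate 1, 3 or 7. After scaling to equal totals 414 were higher and 633 lower.

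The sign changed for differences near 0. In high smoke against air, Aco1 was -0.01 and Ireb2 -0.02 with equal totals, Ireb2 -0.02 with array weights, and Ftl1 0.00 without the 3 libraries. In low smoke against air, Cp was -0.02 with equal totals and -0.01 with array weights, and Ftl1 0.01 with array weights. In high smoke against low smoke, Slc11a2 was -0.02 with equal totals and -0.02 without the 3 libraries, and Aco1 0.03 without them. Leaving out 1 library gave a range across 0 in high smoke against air for Ireb2 (-0.02 to 0.11) and Slc11a2 (-0.09 to 0.01), in low smoke against air for Cp (-0.06 to 0.05) and Ftl1 (-0.13 to 0.03), and in high smoke against low smoke for Ireb2 (-0.05 to 0.01) and Slc11a2 (-0.04 to 0.06).

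For the ratios, leaving out 1 library gave differences in high smoke against air of 0.66 to 0.88 for Fth1 to Ftl1 and -1.22 to -0.92 for Tfrc to Fth1. In low smoke against air these were 0.34 to 0.52 and -0.59 to -0.36, and in high smoke against low smoke 0.24 to 0.44 and -0.74 to -0.45. Fth1 to Ftl1 in low smoke against air was 0.58 as a difference of medians (exact permutation adjusted p = 0.0497) and 0.46 with LOC100360087 (adjusted p = 0.0284), and in high smoke against air 0.47 with that row (adjusted p = 0.0594) and 0.58 without the 3 libraries. Tfrc to Fth1 was -0.75 without them (exact permutation adjusted p = 0.108).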
